A study of Mus musculus with 6 samples.

Results

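Collagen chain genes encode the polypeptides that assemble in threes into the collagens, the main structural proteins of the extracellular matrix. They were taken here as every non-control probe whose deposited gene name consists of Col, a number, the letter a and a number. This gave 43 genes with 68 probes, out of 34844 gene names and 55681 probes on the array. Their messenger RNA was compared between 3 whole testes of aromatase over-expressing transgenic mice (AROM+) and 3 of wild-type mice (WT). All 6 testes were from males of 5 months on the C57BL/6 background, and each was hybridised singly to 1 one-colour Cy3 Agilent array. The labels give neither the promoter nor the species of origin of the transgene, and they name no other allele or treatment. They name single testes, without stating whether these came from separate animals, so the p-values measure the spread between these samples. Aromatase converts androgens into oestrogens.

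Collagens share a triple helix built from repeats of glycine followed by a pair of other residues. They fall into classes by the structure they build: cross-striated fibrils (types I, II, III, V and XI), the sheet of the basement membrane (type IV), beaded filaments (type VI), and several smaller classes that decorate fibrils, span the plasma membrane or carry heparan sulphate or chondroitin sulphate chains. In the testis, basement membrane surrounds the seminiferous tubules and the vessels, and interstitial collagen lies around both. Of the 68 probes, 2 read a stretch in which a glycine codon opened each Gly-X-Y triplet of a frame without stop codons. These belong to Col15a1 and Col25a1 and are printed because their behaviour is taken up below, with the glycine codons in capitals. Coordinates of probes are those of the files (NCBI37/mm9); whether a probe lies in a coding exon or a UTR is not annotated in the files.
Col15a1 probe at chr4:47283786-47283845, plus strand: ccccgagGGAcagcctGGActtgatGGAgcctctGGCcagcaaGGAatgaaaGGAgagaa
Col25a1 probe at chr3:130270497-130270556, plus strand: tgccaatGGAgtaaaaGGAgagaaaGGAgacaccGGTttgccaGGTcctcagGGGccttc

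RefSeq (GRCm38.p6) gave promoter sequence for 35 of the 43 genes, in 38 windows. The 250 bases before the annotated start are printed for Col1a2 and Col3a1, a pair of fibril-forming chains that rose together, with motif matches in capitals. The motifs searched, on either strand, were the CCAAT box, the GC box core GGGCGG and the TATA box core TATAAA.
Col1a2 at chr6:4505368-4505617, plus strand: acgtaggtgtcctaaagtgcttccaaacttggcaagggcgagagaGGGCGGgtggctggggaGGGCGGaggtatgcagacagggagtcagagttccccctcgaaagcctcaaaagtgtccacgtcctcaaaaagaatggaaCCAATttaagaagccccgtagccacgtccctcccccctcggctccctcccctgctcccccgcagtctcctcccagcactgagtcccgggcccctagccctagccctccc
Col3a1 at chr1:45311288-45311537, plus strand: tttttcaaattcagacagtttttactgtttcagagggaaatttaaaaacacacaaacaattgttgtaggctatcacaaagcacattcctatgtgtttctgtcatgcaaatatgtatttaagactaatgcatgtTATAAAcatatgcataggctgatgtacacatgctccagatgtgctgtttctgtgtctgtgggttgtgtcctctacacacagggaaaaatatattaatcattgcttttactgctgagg
The Col1a2 window held 1 CCAAT match, starting 109 bases before the annotated start, and 2 GGGCGG matches, starting 205 and 188 bases before it. The Col3a1 window held 1 TATAAA match, 117 bases before the start. No matches overlapped in either window. GGGCGG occurred in 22 of the 38 collagen windows (57.9%) and in 32.7% of all 32851 windows of this length. CCAAT occurred in 13 (34.2%) against 33.8% of all, and TATAAA in 5 (13.2%) against 12.4%. GGGCGG was present in 8 of 15 windows of genes that rose and in 4 of 8 windows of genes that fell. CCAAT was present in 5 of those 15 and 4 of those 8, and TATAAA in 1 and 2. A match describes the letters of the window only.

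Over the 6 arrays, the share of spots well above background was 76.6% to 80.6%, the 75th percentile of the processed intensity ran from 3543 to 5164, and no spot was saturated. Arrays correlated at r = 0.994 to 0.996 within WT, 0.988 to 0.992 within AROM+ and 0.961 to 0.983 between the groups, across genes, which are not independent replicates. The mouse Cyp19a1 gene, which encodes aromatase, differed by −0.27 ± 0.18 (limma, adjusted p = 0.256); without the transgene's sequence this probe does not check the labels. The arrays share 1 slide, on which the WT samples fill one row and the AROM+ samples the other; genotype and position on the slide cannot be told apart. Levels below are log2 processed intensities relative to the array's 75th percentile. Differences are AROM+ minus WT ± the standard error from limma over 3 arrays a group, with p-values adjusted (Benjamini-Hochberg) over all 28917 genes tested and a threshold of 0.05. Genes were tested where the brightest probe passed the scanner software's background test in all 3 testes of either group. The median difference of all genes tested was −0.16, so a fall of that size is the middle of the array. Levels of different genes come from different probes and are not compared.

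Rises were more frequent among the collagen genes than over the array, and falls were not. The fibril-forming, basement membrane and beaded-filament chains and the multiplexins held 14 of the 15 genes that rose. The fibril-associated and transmembrane chains held 5 of the 9 that fell. These were 3 of 8 and 2 of 3 tested, where 28.3% of all genes fell. Of the 5, Col22a1 had another probe called higher and Col25a1 lost its call under 9 of 17 other settings. Of the 43 genes, 40 were tested: 15 were called higher in AROM+ (37.5%, where 15.1% of all genes were), 9 were called lower (22.5%, where 28.3% were) and 16 were not called. A rise of at least 1 on the log2 scale, which is 2-fold, was called for 11 of the 40 (27.5%, against 5.2% of all genes). A fall of that size was called for 0, although 9 smaller falls passed the same limma test. Falls that large were rare on the whole array, where the 5th percentile of the differences was −0.74. Their share of all genes was not counted. In 17 genes every AROM+ array lay above every WT array (42.5%, against 18.8% of all genes). In 10 every AROM+ array lay below (25%, against 38.7%), and in 13 the groups overlapped. The 15, the 11 and the 17 each include Col5a2, whose lower bound was a 1.66-fold rise. The median difference over the 40 was 0.06, against −0.16 for all genes. It became −0.13 over the 39 genes well above background on all 6 arrays, since Col5a2, detected in AROM+ only, entered through the group in which it was high. The count of falls depended on single arrays: 4 without WT 1, 3 without WT 3 and 5 without AROM+ 1, whereas the count of rises stayed between 13 and 16 with any 1 array left out.

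**Figure D1:**
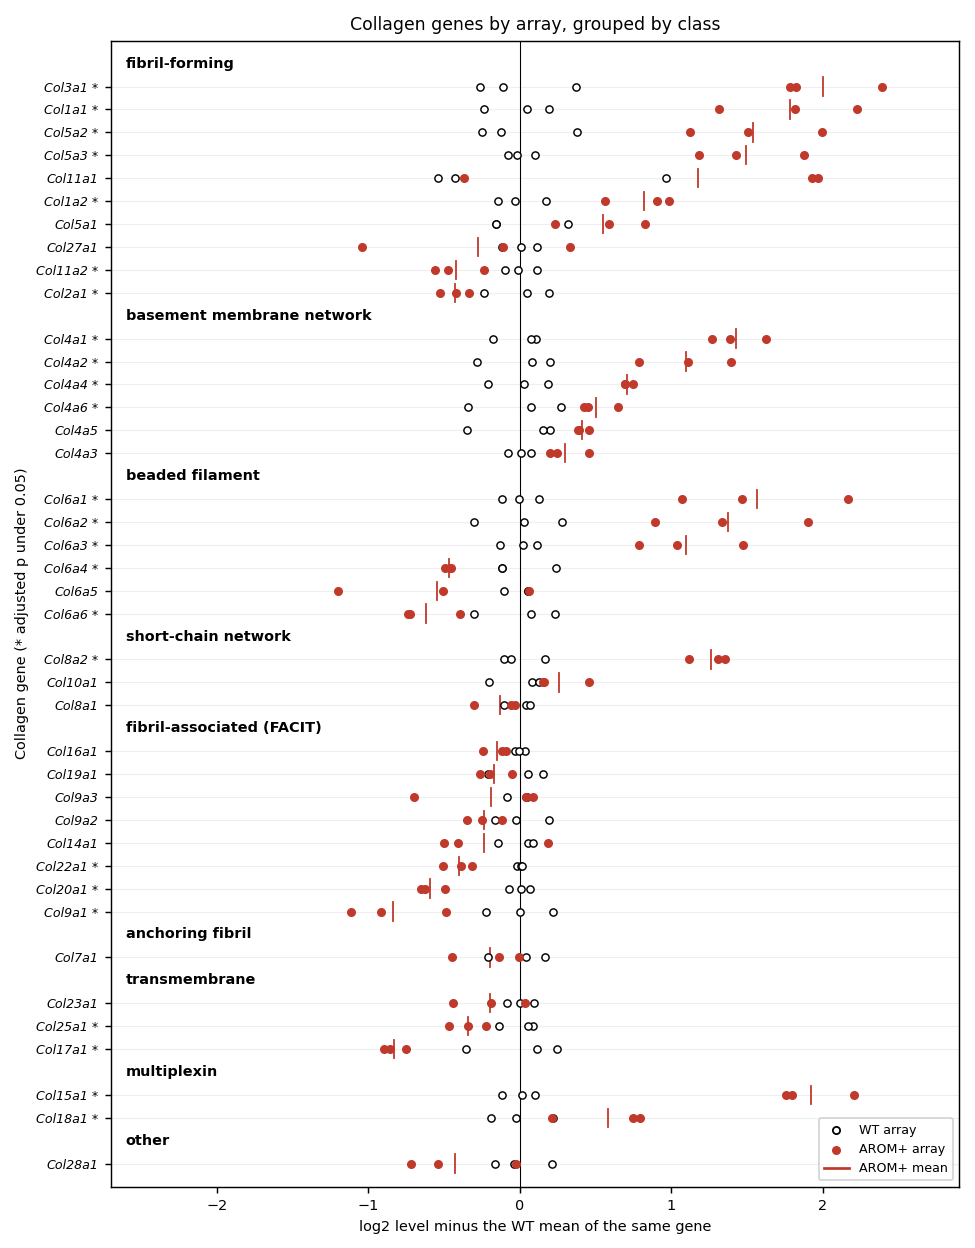
Level of each of the 40 tested collagen genes on each array, as log2 difference from that gene's WT mean (x axis), with genes grouped by class (y axis); open circles are WT arrays, filled circles AROM+ arrays and the bar is the AROM+ mean. In 17 genes all AROM+ points lie right of all WT points, in 10 they lie left, and asterisks mark the 24 called genes.

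Among the fibril-forming chains, which build the banded fibrils of connective tissue, 5 of 10 tested genes rose and 2 fell. Their median difference was 1.00 as fitted and 0.77 with Col5a2 set at its lower bound; with normexp it was 0.62. Col3a1, the chain of type III collagen found in distensible tissues, had the highest difference of all members. Its probe (chromosome 1, 45405589 to 45405648) read 0.85, 1.33 and 0.69 in WT and 3.35, 2.74 and 2.78 in AROM+, a rise of 2.00 ± 0.22, adjusted p = 0.00326 in limma. The lowest AROM+ array stood well clear of the highest WT array. Col1a1, the α1 chain of type I collagen, the main collagen of scar and bone, read −0.13, 0.02 and −0.42 in WT and 2.05, 1.14 and 1.64 in AROM+ (chromosome 11, 94813115 to 94813174). It rose by 1.78 ± 0.24, adjusted p = 0.00416 (limma), or 3.44-fold, and AROM+ 1 was the highest testis. Col1a2, the partner chain of type I collagen, whose promoter is printed above, read 2.54, 2.75 and 2.43 in WT and 3.48, 3.14 and 3.56 in AROM+. The groups did not overlap, and it rose by 0.82 ± 0.15, adjusted p = 0.00767 (limma).

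The type V chains, which sit inside type I fibrils and govern their diameter, were called in part. Col5a3 read −4.64, −4.46 and −4.58 in WT and −2.69, −3.14 and −3.38 in AROM+ (chromosome 9, 20574592 to 20574651) and rose by 1.49 ± 0.18, adjusted p = 0.00351 (limma). Col5a2 was not well above background in any WT testis and was on all 3 AROM+ arrays (chromosome 1, 45431204 to 45431263). It read −7.90, −7.39 and −8.02 in WT and −5.78, −6.64 and −6.26 in AROM+, and AROM+ was at least 1.66-fold higher, taking the lowest signal well above background on each WT array as the floor (fitted difference 1.54 ± 0.25, adjusted p = 0.00637). With normexp, which treats the background differently, the fitted difference was 0.51. Col5a1, the chain common to most type V molecules, read −0.43, −0.90 and −0.90 in WT and 0.08, −0.51 and −0.16 in AROM+; the groups overlapped and the difference of 0.55 ± 0.20 was not called (limma, adjusted p = 0.0591). It passed the threshold without WT 1, without AROM+ 2, with normexp background correction, with a replicate block in the fit and with a trend in eBayes.

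The cartilage-type fibrillar chains went the other way or scattered. Col2a1, the type II chain of cartilage, had the lowest difference of the class: it read 1.80, 1.37 and 1.66 in WT and 1.08, 1.27 and 1.19 in AROM+ (chromosome 15, 97806071 to 97806130) and fell by 0.43 ± 0.13, adjusted p = 0.0381 (limma). The groups did not overlap, but the call was lost without any 1 array other than WT 2. It was also lost with normexp, with quantile normalization, with a replicate block and with no filter on dim probes. Col11a2, a chain of the type XI collagen of the same fibrils, differed by −0.42 ± 0.12, adjusted p = 0.0272 (limma), a call lost without WT 1, WT 3, AROM+ 1 or AROM+ 2. Its partner Col11a1 read −6.43, −5.04 and −6.55 in WT and −4.04, −6.38 and −4.08 in AROM+: WT 2 was above AROM+ 2, and the difference of 1.17 ± 0.70 was not called (adjusted p = 0.211) except without AROM+ 2. Col27a1, a fibrillar chain of cartilage, had AROM+ arrays on both sides of WT (−0.28 ± 0.32, adjusted p = 0.514), and without AROM+ 1 its difference was 0.11. The remaining member, Col24a1, was well above background on 1 AROM+ array only and was not tested. One WT value of it was left out for an outlier flag.

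Every one of the 6 type IV chains, which form the sheet-like network of basement membranes, had a positive difference, and 4 rose. Their median was 0.61. The signs held with normexp and with quantile normalization. Median centring and the deposited log2 table shift all differences alike, by too little to change these signs. Col4a1 and Col4a2 are the ubiquitous chains, joined in a trimer of 2 α1 chains and 1 α2 chain. Col4a1 read 0.37, 0.34 and 0.09 in WT and 1.89, 1.54 and 1.66 in AROM+ (chromosome 8, 11199009 to 11199068) and rose by 1.43 ± 0.13, adjusted p = 0.00231 (limma). Col4a2 read 0.57, 0.69 and 0.21 in WT and 1.89, 1.28 and 1.60 in AROM+ (chromosome 8, 11448840 to 11448899) and rose by 1.10 ± 0.19, adjusted p = 0.00739 (limma). In both genes the highest WT array lay below the lowest AROM+ array. Their annotated starts lie 21 bases apart on opposite strands (RefSeq, GRCm38.p6).

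The other type IV chains had smaller differences. Col4a4, a chain of the α3-α4-α5 network of specialised basement membranes, read 0.06, 0.22 and −0.18 in WT and 0.78, 0.73 and 0.72 in AROM+ and rose by 0.71 ± 0.12, adjusted p = 0.00665 (limma). Col4a6, a chain of the α5-α6 network, read −2.55, −2.35 and −2.96 in WT and −2.20, −2.17 and −1.97 in AROM+ and rose by 0.50 ± 0.17, adjusted p = 0.0472 (limma). That call was lost without any 1 array other than WT 2, and with quantile normalization, median centring, a replicate block or no filter. Col4a3, which lies next to Col4a4 on chromosome 1, had the smallest difference of the class: it read −2.56, −2.48 and −2.64 in WT and −2.32, −2.10 and −2.36 in AROM+, and 0.30 ± 0.11 was not called although the groups did not overlap (limma, adjusted p = 0.0563), except when only current RefSeq symbols were tested. Col4a5, whose start lies 1343 bases from that of Col4a6 on the X chromosome, differed by 0.41 ± 0.16 and was not called (limma, adjusted p = 0.0716), again with no overlap. Both Col4a4 and Col4a6 had other probes that were called lower, described below; with a gene's probes averaged, 2 of the 6 chains rose, and the differences were 0.15 for Col4a4 and 0.018 for Col4a6.

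**Figure D2:**
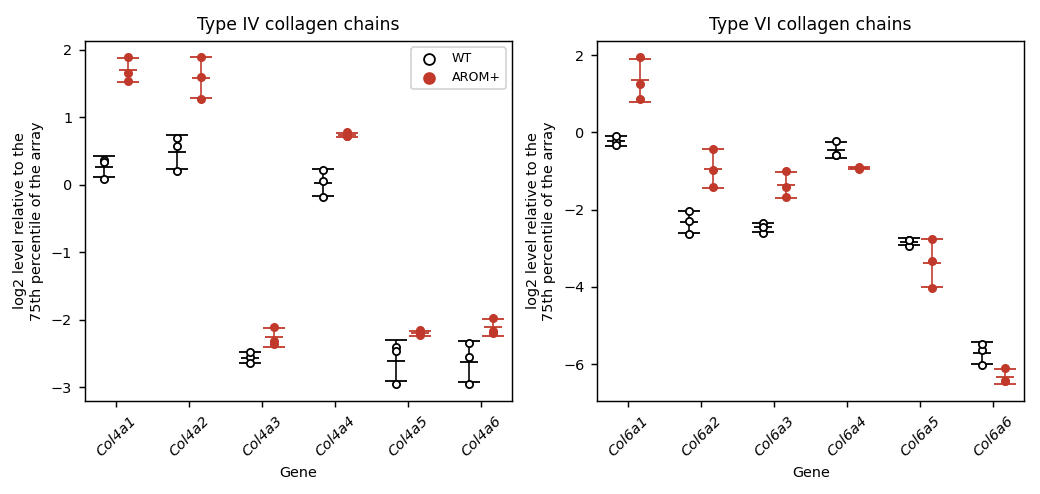
Log2 level relative to the array's 75th percentile (y axis) of the 6 type IV chains (left) and 6 type VI chains (right) on each WT (open) and AROM+ (filled) array, with mean and SD as bars, n = 3. AROM+ lies above WT for all 6 type IV chains, while among type VI chains Col6a1, Col6a2 and Col6a3 lie above and Col6a4 and Col6a6 below.

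Type VI collagen forms beaded microfilaments beside basement membranes, and its chains moved in both directions. The classical chains Col6a1, Col6a2 and Col6a3, which together make the common trimer, all rose. Col6a1 had the highest difference of the class: it read −0.22, −0.09 and −0.34 in WT and 1.95, 1.25 and 0.85 in AROM+ (chromosome 10, 76171538 to 76171597), a rise of 1.57 ± 0.26, adjusted p = 0.00671 (limma). Col6a2, its neighbour on chromosome 10, read −2.29, −2.04 and −2.62 in WT and −0.42, −1.43 and −0.99 in AROM+ (chromosome 10, 76058931 to 76058990) and rose by 1.37 ± 0.27, adjusted p = 0.00986 (limma). Col6a3 read −2.35, −2.59 and −2.44 in WT and −0.99, −1.43 and −1.68 in AROM+ (chromosome 1, 92663663 to 92663722) and rose by 1.10 ± 0.18, adjusted p = 0.00641 (limma). In all 3 genes AROM+ 1 was the highest array and no WT array reached an AROM+ value.

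Col6a4, Col6a5 and Col6a6 lie side by side on chromosome 9 and encode chains that resemble α3. Col6a4 read −0.22, −0.58 and −0.57 in WT and −0.95, −0.92 and −0.91 in AROM+ and fell (−0.47 ± 0.12, adjusted p = 0.0217, limma), a call lost without WT 1, AROM+ 1 or AROM+ 2. Col6a6, with the lowest difference of the class, read −5.63, −6.01 and −5.48 in WT and −6.45, −6.10 and −6.43 in AROM+ (chromosome 9, 105676597 to 105676655) and fell (−0.62 ± 0.17, adjusted p = 0.0257, limma). That call was lost without WT 1, WT 3, AROM+ 1 or AROM+ 3, with a replicate block and with normexp, where the difference was −0.28. Col6a5 differed by −0.55 ± 0.29 with overlap (adjusted p = 0.166) and was called only without AROM+ 1. The median difference of the 6 chains was 0.31.

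The multiplexins carry glycosaminoglycan chains and sit at the outer face of basement membranes; both rose. Col15a1 had the second highest difference among members: it read −5.23, −5.14 and −5.36 in WT and −3.04, −3.45 and −3.49 in AROM+ (chromosome 4, 47325273 to 47325332) and rose by 1.92 ± 0.14, adjusted p = 0.00172 (limma), or 3.78-fold, with no overlap; with its probes averaged the rise was 1.06. Col18a1, whose C-terminal fragment is endostatin, read −0.09, 0.16 and −0.25 in WT and 0.73, 0.15 and 0.69 in AROM+ (chromosome 10, 76514926 to 76514985). AROM+ 2 fell just below WT 2, and the rise was 0.58 ± 0.19, adjusted p = 0.0432 (limma). Its call was lost without WT 1, WT 3, AROM+ 1 or AROM+ 3, with its probes averaged, with a replicate block and with no filter on dim probes.

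Of the 3 short-chain network genes, which make hexagonal lattices, Col8a2 rose. It read −3.59, −3.32 and −3.55 in WT and −2.18, −2.37 and −2.13 in AROM+ (chromosome 4, 125991441 to 125991500), with no overlap, and the difference was 1.26 ± 0.12, adjusted p = 0.00231 (limma). Col8a1, the other chain of type VIII collagen, read −5.15, −5.12 and −5.30 in WT and −5.22, −5.49 and −5.25 in AROM+ (chromosome 16, 57624471 to 57624530); at −0.13 ± 0.11, adjusted p = 0.361 (limma) it was not called. Col10a1, the chain of hypertrophic cartilage, differed by 0.26 ± 0.14, adjusted p = 0.163 (limma), with the lowest AROM+ values just above the highest WT value. The median of the 3 was 0.26.

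By its brightest probe, no fibril-associated chain rose. These collagens with interrupted triple helices (FACIT) attach to the surface of fibrils. All 8 tested had a negative difference by that probe, as 64.4% of all genes did. Median centring and the deposited log2 table shift all differences alike, by too little to change these signs. The 8 stayed negative with normexp and with quantile normalization, but Col9a3 turned positive without AROM+ 1 and Col22a1 with its probes averaged. Their median was −0.24, which is −0.08 relative to the median of all genes. Of the 8, 3 were called lower, where 28.3% of all genes were, and 1 was called without WT 3. Col9a1, the α1 chain of cartilage type IX collagen, had the lowest difference of all members: it read −1.37, −1.60 and −1.16 in WT and −2.29, −1.86 and −2.49 in AROM+ (chromosome 1, 24259125 to 24259184), a difference of −0.84 ± 0.19, adjusted p = 0.0145 (limma). The groups did not overlap, and the call was lost without WT 3.

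Col20a1 read 2.91, 3.05 and 2.99 in WT and 2.36, 2.49 and 2.33 in AROM+, with little spread in either group, and fell (−0.59 ± 0.09, adjusted p = 0.00585, limma). Col22a1, a chain of tissue junctions, read 3.14, 3.16 and 3.17 in WT and 2.65, 2.84 and 2.77 in AROM+ and fell (−0.40 ± 0.09, adjusted p = 0.0137, limma), a call lost without WT 3 and with quantile normalization, where the difference was −0.21. Both had every AROM+ array below every WT array. Col16a1 was nearest to 0 in the class: it read 1.70, 1.63 and 1.66 in WT and 1.55, 1.57 and 1.42 in AROM+ (chromosome 4, 129776333 to 129776392), and −0.15 ± 0.09, adjusted p = 0.201 (limma) was not called despite the lack of overlap. The differences of Col9a2, Col9a3, Col14a1 and Col19a1 ran from −0.24 to −0.17 and none was called (limma, adjusted p = 0.154, 0.491, 0.336 and 0.293). Col9a3 turned to 0.06 without AROM+ 1, and Col14a1 was called lower without AROM+ 3 and with its probes averaged. Col12a1 was not well above background on any of the 6 arrays and was not tested.

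The transmembrane collagens are cell-surface proteins with a collagenous ectodomain. Col17a1, the hemidesmosomal collagen, fell and had the lowest difference of the 3 tested: it read −2.82, −3.29 and −2.69 in WT and −3.83, −3.68 and −3.79 in AROM+ (chromosome 19, 47720894 to 47720953), a difference of −0.83 ± 0.16, adjusted p = 0.00992 (limma). Its AROM+ arrays lay close together and below every WT array. Col25a1, read by the second triple-helix probe printed above, read −3.80, −3.58 and −3.61 in WT and −4.13, −3.88 and −4.00 in AROM+ and fell (−0.34 ± 0.11, adjusted p = 0.0412, limma). Its groups did not overlap, but the call was lost without any 1 array other than AROM+ 2, with normexp, with its probes averaged, with a trend in eBayes and with no filter. Col23a1 had the highest difference of the class and read −0.71, −0.79 and −0.61 in WT and −0.89, −0.67 and −1.14 in AROM+ (chromosome 11, 51394105 to 51394164); the groups overlapped and −0.20 ± 0.14, adjusted p = 0.273 (limma) was not called. Col13a1 was not well above background on any array.

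Col7a1, the anchoring-fibril chain beneath epithelia, read −1.37, −1.12 and −0.99 in WT and −1.61, −1.30 and −1.16 in AROM+ (chromosome 9, 108886861 to 108886920). The groups overlapped and the difference of −0.20 ± 0.15, adjusted p = 0.327 (limma) was close to the median of all genes. Col28a1, a chain outside the other classes, read −5.34, −5.72 and −5.59 in WT and −6.09, −6.27 and −5.57 in AROM+ (chromosome 6, 7947808 to 7947867). The groups overlapped, and −0.43 ± 0.20, adjusted p = 0.118 (limma) was not called except without AROM+ 3.

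Chains of one collagen type were then set against each other within each array. For 39 pairs of tested chains, the within-array difference was compared between groups with an exact two-sided permutation test, whose smallest possible p with 3 arrays against 3 is 0.1. Adjusted over the 39 pairs this smallest p was 0.156, so no pair could pass the threshold, and pairs of one type share chains. Col1a1 gained on Col1a2, with a change in their log2 ratio of 0.97 (exact permutation, p = 0.1). Col4a1 gained 0.33 on Col4a2 and 1.13 on Col4a3, both with the same exact p. Col6a1 gained 2.04 on Col6a4, whereas its ratio to Col6a2 changed by 0.19 (exact permutation, p = 0.6). Col8a1 lost 1.39 to Col8a2, shown as a ratio change of −1.39 (exact permutation, p = 0.1). Ratios with Col5a2 are left out here, since that probe was not well above background in WT, and appear only with the processing settings.

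Some members are neighbours on a chromosome. In the order of protein-coding genes of RefSeq, 8 adjacent pairs of members occur, and in 8 of 8 both genes differed in the same direction. Col3a1 and Col5a2 on chromosome 1, Col6a2 and Col6a1 on chromosome 10, and Col4a1 and Col4a2 on chromosome 8 rose together. Col4a4 with Col4a3 and Col4a6 with Col4a5 each held 1 gene that rose and 1 positive difference that was not called. The run of Col6a6, Col6a5 and Col6a4 was negative throughout, as were Col9a1 and Col19a1. The pairs with Col4a4 and Col4a6 hold for the brightest probes, since another probe of each was called lower. Adjacent members are mostly chains of one type, and 64.4% of all genes tested had a negative difference. The same count over all adjacent genes was not taken, and the agreement is given as a description.

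Several genes were read by more than one probe, and not all of their probes moved alike. Of the 43 genes, 12 had more than 1 tested probe; p-values here come from limma over all probes. Col6a2 gave 1.37 ± 0.27 and 1.36 ± 0.19 from its pair of probes, both called. Col20a1 gave −0.59 ± 0.10 and −0.52 ± 0.10, and Col9a1 gave −0.84 ± 0.19 and −0.64 ± 0.21, all called lower. Col18a1 gave 0.58 ± 0.19 (called) and 0.47 ± 0.19 (adjusted p = 0.0849, limma).

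In 3 genes the probes were called in opposite directions. The brightest Col4a4 probe (82447879 to 82447938 on chromosome 1) differed by 0.71 ± 0.12. A second at 82449133 to 82449192 differed by 0.09 ± 0.12 (limma, adjusted p = 0.568), and a probe farther off at 82515563 to 82515622 fell, at −0.35 ± 0.11 (limma, adjusted p = 0.0375). The Col4a6 probes, at 137599990 and 137601433 on the X chromosome, gave 0.50 ± 0.17 (limma, adjusted p = 0.0488) and −0.47 ± 0.10 (limma, adjusted p = 0.0130). For Col22a1, the bright probe at 71699345 on chromosome 15 fell by 0.40 on the log2 scale. The probe of its RefSeq transcript at 71628906 rose by 0.69 ± 0.13 (limma, adjusted p = 0.00946). A gene-level direction for Col4a4, Col4a6 and Col22a1 therefore holds for the named probe only.

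Col15a1 showed a split of another kind. A pair of probes that overlap at the 3′ side of the gene (47325273 and 47325261 on chromosome 4) rose by 1.92 ± 0.14 and 1.51 ± 0.14, whereas the Gly-X-Y probe printed above differed by −0.24 ± 0.13 and was not called (limma, adjusted p = 0.178). Col14a1 had its dimmer probe called lower (−0.65 ± 0.13, limma, adjusted p = 0.010) and its brighter probe not called (−0.24 ± 0.19). Differences between probes of one gene were not tested themselves.

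**Figure D3:**
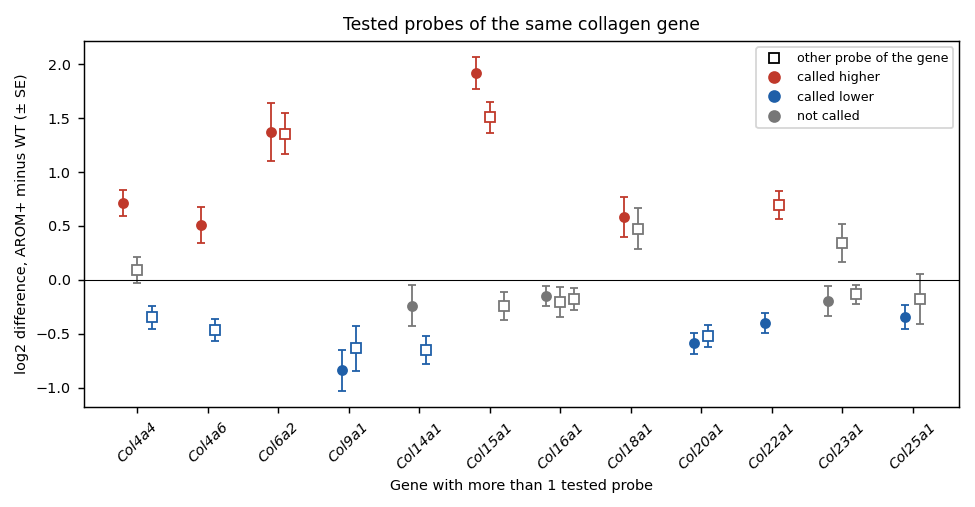
Log2 difference, AROM+ minus WT, ± SE (y axis) of each tested probe of the 12 collagen genes with more than 1 (x axis); filled circles are the brightest probe, open squares the others, and colour marks the call over all probes. Col4a4, Col4a6 and Col22a1 each have probes called on both sides of 0.

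The testes of a group did not contribute equally. Among the 15 genes that rose, AROM+ 1 was the highest AROM+ array in 12, AROM+ 3 in 3 and AROM+ 2 in 0. AROM+ 2 was the lowest in 9. On the WT side, WT 2 was highest in 13 and WT 3 lowest in 12. Among the 9 genes that fell, AROM+ 1 was lowest in 7 and AROM+ 2 highest in 7, so the same testes stood nearest to and farthest from the other group in both directions. The 75th percentile of intensity was highest in AROM+ 1 (5164) and lowest in WT 2 (3543). Its part in these orders was not tested. The same counts over all genes were not taken, so the orders are not shown to be particular to the collagen genes.

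The genes that make, process, bind and break down collagen were read from 5 lists of 74 genes, 70 of them tested. Of these, 41 rose and 8 fell (limma), with a median of 0.56. The 41 include Mmp9 and Fap, which were well above background in AROM+ only and entered the test through that group. The count of falls was 4 without WT 1, 4 without WT 3 and 3 without AROM+ 3. Over all genes tested, 15.1% rose and 28.3% fell, with a median of −0.16, for comparison with the lists below.

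Chain modification and folding takes place in the endoplasmic reticulum, and 15 of 21 tested genes rose while 2 fell, with a median of 0.54. Plod2, which hydroxylates the telopeptide lysines used for cross-links, read −3.11, −2.51 and −3.27 in WT and 0.82, 0.23 and −0.65 in AROM+ and rose by 3.098 ± 0.38, adjusted p = 0.00366 (limma). Leprel2 (P3h3), a member of the prolyl 3-hydroxylase family, rose by 2.02 ± 0.26, adjusted p = 0.0039. Serpinh1, the collagen chaperone HSP47, read −0.93, −0.88 and −0.87 in WT and 0.97, 0.22 and 0.46 in AROM+ and rose by 1.45 ± 0.19, adjusted p = 0.00392. Fkbp7, a peptidyl-prolyl isomerase, rose by 1.13 ± 0.22, adjusted p = 0.00906. In each of these 4 genes every AROM+ array lay above every WT array. P4ha1, a catalytic subunit of prolyl 4-hydroxylase, rose by 1.01 ± 0.10, adjusted p = 0.00277, whereas P4ha2 differed by −0.07 ± 0.10 (adjusted p = 0.566) and P4ha3 fell (−0.64 ± 0.16, adjusted p = 0.0212). Neither of the 2 falls of this list was called without WT 1 or without AROM+ 3, and 1 was without WT 3 or AROM+ 2.

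Removal of propeptides and cross-linking outside the cell was less uniform: 6 of 13 genes rose, 2 fell, and the median was 0.50. Adamts2, the procollagen N-proteinase, rose by 1.12 ± 0.30, adjusted p = 0.0251 (limma). Tgm2, a transglutaminase, rose by 0.99 ± 0.17, adjusted p = 0.00745, and Loxl3, a lysyl oxidase family member, was called higher (0.99 ± 0.27, adjusted p = 0.0258). Loxl3 was well above background on 1 of 3 WT arrays only, and with normexp the difference was 0.44. Its call was lost without WT 1, WT 3, AROM+ 1 or AROM+ 3 and with a replicate block. Pcolce, the enhancer of the C-proteinase, rose by 0.74 ± 0.21, adjusted p = 0.0297. Lox itself, the classical lysyl oxidase, read −4.20, −4.23 and −4.21 in WT and −4.00, −4.23 and −4.85 in AROM+ and was not called (−0.15 ± 0.21, adjusted p = 0.579). Only 1 of the 13 was called higher without WT 1, 1 without WT 3 and 2 without AROM+ 1; Adamts2, Loxl3 and Pcolce were among the calls lost in each case. Of the 2 falls, at most 1 was called with any array left out.

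Among collagen receptors, 5 of 11 rose, 3 fell, where 28.3% of all genes did, and the median was 0.36. Ddr2, a receptor tyrosine kinase for fibrillar collagen, read −3.09, −2.73 and −3.10 in WT and −1.09, −1.45 and −1.22 in AROM+ and rose by 1.72 ± 0.15, adjusted p = 0.00213 (limma). Lair1, an inhibitory receptor of leukocytes, rose by 1.59 ± 0.31, adjusted p = 0.0092 (0.99 with its probes averaged), Ddr1 by 0.89 ± 0.18, adjusted p = 0.0104, and the integrin β1 subunit gene Itgb1 by 0.88 ± 0.09, adjusted p = 0.00297. The collagen-binding integrin α subunits went the other way or were not called. Itga2 fell (−0.86 ± 0.17, adjusted p = 0.0101) and so did Itga1 (−0.64 ± 0.14, adjusted p = 0.0122), while Itga10 differed by −0.43 ± 0.16 and Itga11 by 0.36 ± 0.15. The third fall was Oscar (−0.44 ± 0.12, adjusted p = 0.0273), an osteoclast-associated receptor. With each array centred on its median gene, 5 of the 11 were called lower.

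Collagen breakdown had the highest median of the 5 lists: 7 of 9 tested genes rose and 0 fell, with a median of 2.30 as fitted and 1.49 with a pair of genes at their bounds. With normexp the same number of genes rose and the median was 0.85. Timp1, an inhibitor of matrix metalloproteinases, read −2.45, −1.58 and −2.58 in WT and 1.60, 0.97 and 1.30 in AROM+ and rose by 3.49 ± 0.29, adjusted p = 0.00208 (limma), or 11.25-fold. Mmp2, gelatinase A, read −4.25, −4.13 and −4.52 in WT and −0.48, −1.79 and −1.82 in AROM+ and rose by 2.94 ± 0.36, adjusted p = 0.00359. Ctsk, the collagen-degrading protease cathepsin K, read −2.93, −3.02 and −3.13 in WT and −0.00, −0.76 and −0.10 in AROM+ and rose by 2.74 ± 0.20, adjusted p = 0.00172. Mmp2 and Timp1, an inhibitor of its enzyme family, thus rose in the same testes. Mmp9 and Fap were not well above background in any WT testis. Both entered the test, and the count of 7, through AROM+, the group in which they were high. Mmp9 was at least 4.62-fold higher in AROM+ (fitted 3.14 ± 0.73, limma, adjusted p = 0.0156, 1.35 with normexp). Its call was lost without WT 3. Fap was at least 1.97-fold higher (fitted 2.30 ± 0.29, limma, adjusted p = 0.00383). Timp3 rose by 0.60 ± 0.10, adjusted p = 0.00675 (limma), and Timp2 was not called (0.15 ± 0.09, adjusted p = 0.223). The collagenase genes Mmp13 and Mmp1a were not above background on enough arrays to be tested.

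Other basement membrane proteins followed type IV collagen in part: 8 of 17 rose, 1 fell, and the median was 0.57. Lama4, the laminin α4 chain of vessels and interstitial cells, read −1.90, −2.03 and −1.87 in WT and −0.49, −0.73 and −0.58 in AROM+ and rose by 1.33 ± 0.10, adjusted p = 0.0018 (limma). Hspg2, which encodes perlecan, rose by 1.20 ± 0.19, adjusted p = 0.00585, Lamc1 by 1.17 ± 0.15, adjusted p = 0.00393 and Lamb1 by 1.09 ± 0.13, adjusted p = 0.00342. Laminin chains that differed little were Lama2 (0.16 ± 0.13), Lamc3 (0.07 ± 0.26) and Lama5 (−0.20 ± 0.10), none of them called, while Lamb3 fell (−0.47 ± 0.10, adjusted p = 0.0124). Nid1, a linker of laminin and type IV collagen, missed the threshold (0.30 ± 0.10, adjusted p = 0.0504).

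**Figure D4:**
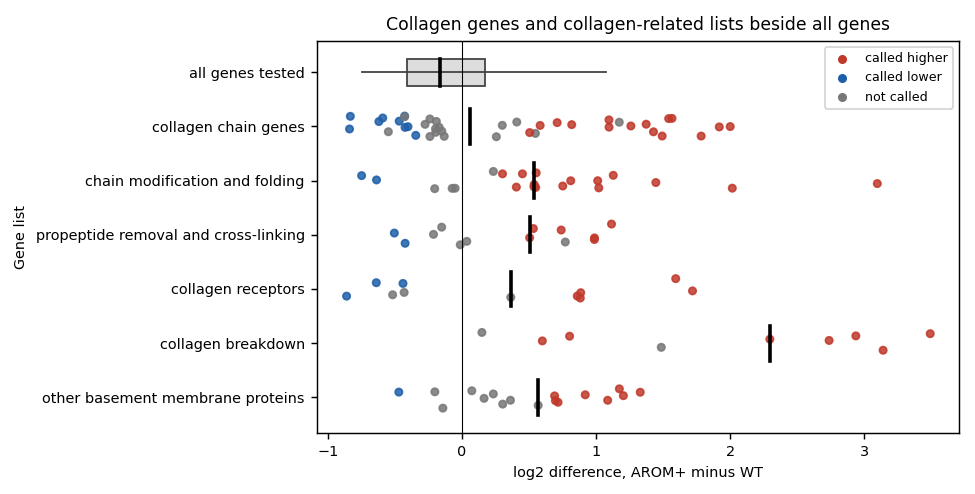
Log2 difference, AROM+ minus WT (x axis), of each tested gene in the collagen chain list and 5 related lists (points, coloured by call; black bars are medians), beside all 28917 genes tested (box from the 25th to the 75th percentile, −0.41 to 0.18, line from the 5th to the 95th, −0.74 to 1.07). Mmp9, Fap and Col5a2, at or below background in WT, are drawn at their fitted values.

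Whole testis mixes cell types, and in such samples fewer cells of a type and less RNA per cell cannot be told apart. Lists of 8 marker genes a cell type were read on the same arrays, and all were above background on some array. Over all genes tested, 15.1% rose and 28.3% fell, with a median of −0.16. Of the interstitial fibroblast and progenitor markers, 6 of 8 rose (median 1.15) and 1, Mfap5, fell (−0.38 ± 0.10, limma, adjusted p = 0.0247). Their summed linear level, as multiples of the 75th percentile, was 3.29 to 3.67 in WT and 4.23 to 7.64 in AROM+. Tcf21, a fibroblast transcription factor, rose by 1.44 ± 0.27, adjusted p = 0.00854 (limma). Dpt, a fibroblast matrix protein, was called higher (3.46 ± 0.69, adjusted p = 0.0101), but it was well above background on 1 of 3 WT arrays only, and with normexp the difference was 1.95. Of the endothelial markers 6 of 8 rose and 1 fell (median 1.08), their sum going from 3.20 to 3.46 in WT to 3.71 to 5.13 in AROM+. Tie1, a vascular receptor, rose by 1.67 ± 0.28 (limma, adjusted p = 0.00695). The fall was Kdr (−0.36 ± 0.09, limma, adjusted p = 0.0194).

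Macrophage markers rose in 7 of 8 (median 1.92) and fell in 1, Csf1r (−0.42 ± 0.12, limma, adjusted p = 0.0328). Their sum was 9.95 to 13.7 in WT and 24.96 to 38.8 in AROM+, and Lyz2, lysozyme, rose by 2.82 ± 0.36, adjusted p = 0.00395 (limma). Of the peritubular myoid and smooth muscle markers 2 rose (4 with quantile normalization, 1 with normexp or no filter) and 1 fell; the median was 0.33 and the sums overlapped at 23.2 to 26.7 against 22.5 to 24.9. Of the Leydig cell markers 4 rose and 0 fell (median 0.51, with sums of 22.97 to 41.2 against 39.8 to 57.1). Star, Cyp17a1 and Hsd17b3 had negative differences (−0.37, −0.40 and −1.05) and were not called. Of the Sertoli cell markers 1 rose and 0 fell (median 0.22, 38.7 to 45.3 against 38.2 to 52.9). Spermatid markers went down in 4 of 8 and up in 0, with a median of −0.38, and their sum was 188 to 265 in WT and 164 to 172 in AROM+. Without any 1 array other than WT 2 that count was 1 or 2, and with quantile normalization it was 2. The single falls in the fibroblast, endothelial and macrophage lists were lost without WT 1, and the count of 2 myoid rises became 0 without AROM+ 1 and 1 without AROM+ 3 or any WT array. The fibroblast, endothelial and macrophage sums were higher in every AROM+ testis and the spermatid sums lower, and the part of any marker list in the collagen result was not tested.

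How firmly each call stood differed between rises and falls. Across 17 other settings, including the removal of each array, 14 of the 24 called genes kept their call wherever they were tested. For Col5a2 the filter on all 6 arrays gave no test. It was tested elsewhere only because it was detected in AROM+, so its kept call is weaker support than the others. With normexp its difference was 0.51. The 14 were Col1a1, Col1a2, Col3a1, Col4a1, Col4a2, Col5a2, Col5a3, Col6a1, Col6a2, Col6a3, Col8a2 and Col15a1 among those that rose, and Col17a1 and Col20a1 among those that fell. Among the rises, Col4a4, Col4a6 and Col18a1 lost their call under at least 1 setting.

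**Figure D5:**
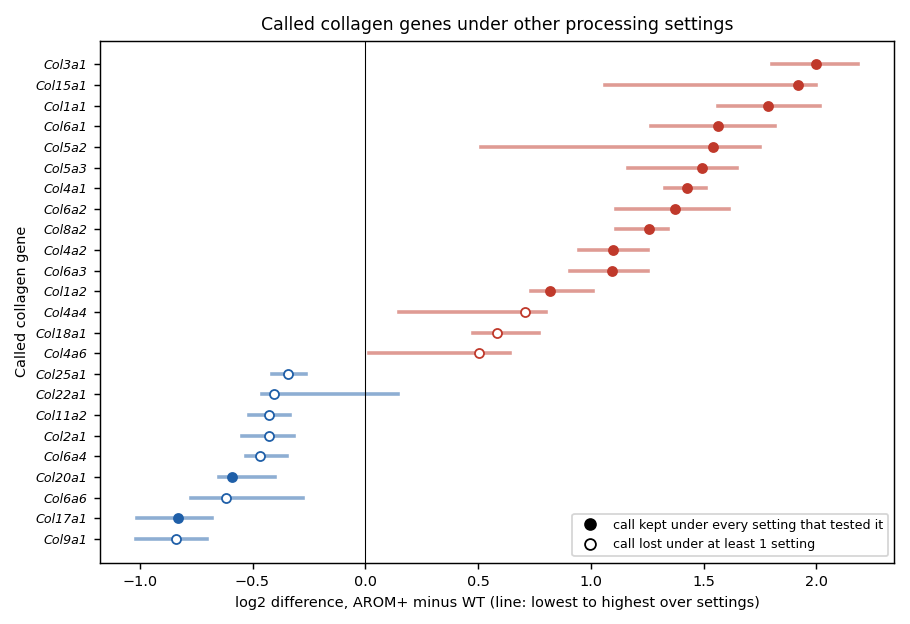
Log2 difference, AROM+ minus WT (x axis), of the 24 called collagen genes (y axis): points are the reported values and lines the lowest to highest value over 17 other processing settings; filled points kept their call under each that tested the gene. The lines of the 12 filled rises stay above 0, the line of Col22a1 crosses 0, and Col5a2 is drawn at fitted values, with no value under the filter on all 6 arrays.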

How the data were processed

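Total RNA of 6 whole testes, 3 AROM+ and 3 WT, was measured on one-colour arrays, and samples were grouped by the genotype in their labels. The deposited intensity values are scanner output of Agilent Feature Extraction (10.7.3.1 per the file headers, 10.10 per the submitters' processing notes), background-corrected per the file headers. A deposited table of log2 values was also read. Against the scanner values it has slope 1.00, equals log2 of the processed signal minus a constant per array within 0.01 for 93.9% to 94.1% of spots, and has column medians of −3.12, −3.11 and −3.09 (WT) and −3.05, −3.09 and −3.02 (AROM+). Genes were not centred in it, and it served as an alternative.

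Here, the processed signal was put on the log2 scale and the 75th percentile of its array subtracted, after control spots (3671 an array) and outlier spots (123 to 192) were left out. Genes are deposited names, each represented by its brightest probe; all 43 collagen names are current RefSeq symbols. AROM+ was tested against WT with lmFit and eBayes of limma 3.58.1 (R 4.3.3), and the fit was tested on simulated data. The number of arrays limits the precision. Same-numbered replicates did not deviate together (r = 0.05, −0.17 and 0.05), so no pairing was used. Named genes are members called with a log2 difference of at least 1, seen in one group only, lowest or highest of their class or with opposed probes, plus up to 4 called genes of each other list. Further genes (among them Col1a2, the remaining members, P4ha1, Lox, Nid1, Lama2 and Timp2) were named after their values were seen. Members, classes and lists were chosen with earlier results of these data known. Alternatives were normexp (offset 50), quantile normalization, median centring, the deposited table, other filters and probe rules, a trend, a replicate block, current RefSeq symbols only (added after seeing the data) and leaving out each array.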

Additional observations from a re-analysis of the deposited data

How the results depend on the processing

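Of 17 other settings, the count of collagen genes called higher stayed within 1.5 times its value under each. With 1 array left out it was 13 to 16, and the count called lower was 3 to 8 against 9. Over all genes, with 1 array left out, 2801 to 4118 genes were called higher and 4031 to 7085 lower, and 4910 were called lower when only current RefSeq symbols were tested, which are fewer genes. Among collagen-related genes, 3 to 6 were called lower with 1 array left out. The median collagen difference was −0.13 when all 6 arrays had to be above background, and 0.022 to 0.21 with 1 array left out. With a gene's probes averaged, Col22a1 turned to 0.15 and Col23a1 to 0.00252, since their probes oppose each other; with 1 array left out, Col9a3 ran from −0.33 to 0.063 and Col27a1 from −0.58 to 0.11, both turning without AROM+ 1. With normexp background correction, the ratio change of Col5a1 to Col5a2 turned from −0.99 to 0.043 and Col5a2 to Col5a3 from 0.048 to −0.65. Both involve Col5a2, which was not well above background in WT. With normexp, Col6a4 to Col6a6 also turned from 0.15 to −0.22 and Col6a5 to Col6a6 from 0.071 to −0.27. With quantile normalization Col6a5 to Col6a6 turned to −0.033. The cause was not tested. With the replicate block, 21 collagen genes were called, 20 of them shared with the 24 reported, and 3 of 13 propeptide and cross-linking genes were called higher. The split of all calls was 34.7% higher; it was 43.2% with quantile normalization and 29.0% with median centring. Signal over background limits Col5a2, Col12a1, Col13a1 and Col24a1.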
